A study of Mus musculus with 8 samples.

Results

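Collagens were followed as a gene family in whole geniculate ganglia, the sensory ganglia of the facial nerve that house neurons serving taste on the front of the tongue and the palate. The members are all genes of the authors' deposited table whose symbol reads Col, a number, the letter a and a number, which gave 37 genes of 15110 in all. The knockout group was 4 libraries of adult Egr4-/- mice and the wild type group 4 libraries of adult Egr4+/+ littermates, all of the C57Bl/6 strain, with total RNA of all cells of the ganglion measured by bulk RNA-seq. The labels name 4 mice per genotype but do not spell out that each library is 1 animal's, and they give neither the promoter or cell type of the deletion nor the age in weeks. P-values therefore measure the spread between these libraries. Collagens Col6a4, Col6a5, Col6a6, Col7a1, Col10a1, Col17a1 and Col24a1 are not analysed here.

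Collagens are triple helices of 3 chains that form the extracellular scaffold of connective tissue. Around a ganglion they build the outer sheath and the sleeves that wrap bundles of nerve fibres, the fine fibrils between the fibres, and the basement membranes under Schwann cells, satellite glia and vessels. Fibrillar collagens give tensile strength, network-forming type IV chains carry basement membranes, and the fibril-associated collagens with interrupted helices (FACITs) decorate fibrils. By known structure the 37 genes comprised 10 fibrillar chains, 6 type IV basement membrane chains, 4 chains grouped as beaded filament formers, 2 short chain collagens, 9 FACITs, 2 multiplexins, 3 transmembrane collagens and Col26a1. The family also takes in chains best known from cartilage (Col2a1, Col9a1, Col9a2, Col9a3, Col11a1, Col11a2) and from neurons (Col25a1), so it is wider than sheath and connective tissue. Whole ganglia were measured, so fewer cells of a type and less RNA per cell cannot be told apart.

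Total counts per library ran from 30849310 to 54255872, and levels are given as CPM (counts scaled to a common library size) after TMM, which evens out library composition. Egr4 itself, which encodes a zinc finger transcription factor, had 0.444, 1.22, 0.940 and 1.04 CPM in the 4 knockout libraries (replicates 1 to 4), against 1.54, 3.14, 0.925 and 3.24 CPM in the 4 wild type libraries. The groups overlapped and the log2 difference of -1.27 ± 0.65 (SE) had an adjusted p of 0.924, and a whole-gene count does not show which exons were deleted. All 15 listed ganglion neuron markers were measured, and so were all 15 fibroblast and all 11 perineurium markers. Over the whole table edgeR's quasi-likelihood test called 1 gene, Wdfy1, at an adjusted p under 0.05.

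None of the collagens passed the test between genotypes. Called collagens numbered 0 of 37, beside 0.00662% of all genes, and the smallest adjusted p of a collagen was 0.924 by edgeR's quasi-likelihood test. At an unadjusted p under 0.05 stood 1 collagen, Col28a1, which was lower in knockout libraries, beside 4.84% of all genes in either direction and 2.9% in the lower direction. Its 4 knockout values all lay under its 4 wild type values, which held for 1.41% of all genes in that direction and for 2.62% in either. In the higher direction 0 collagens met either mark, beside 1.94% of all genes at that p and 1.21% without overlap. edgeR's likelihood ratio test, which called 0.0662% of all genes, and DESeq2, which called 0.0931%, also called 0 collagens. Each put 2 collagens, Col15a1 and Col28a1, under an unadjusted p of 0.05, beside 5.08% of all genes by the likelihood ratio test and 6.35% by DESeq2. Fitted log2 differences were positive for 16 collagens and negative for 21, beside 51.3% and 48.7% of all genes. The members' median difference was -0.10 and that of all genes 0.01. All 37 passed the filter on low counts, which removed none of the 15110 genes.

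**Figure D1:**
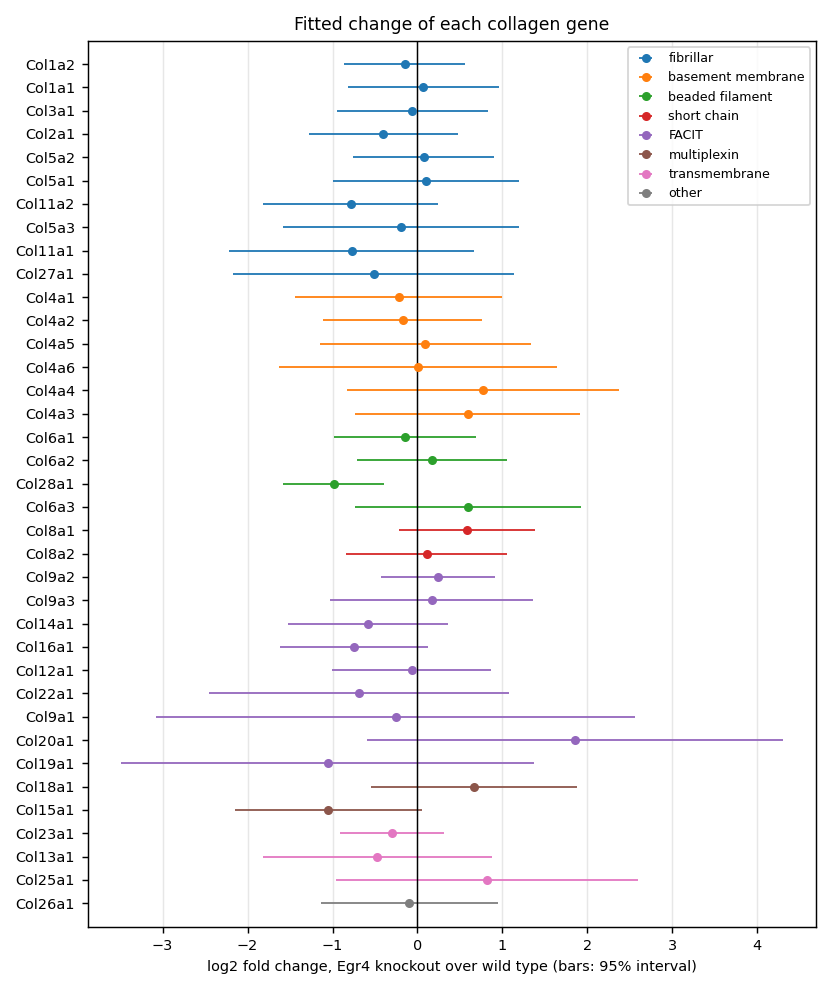
Log2 fold change of each collagen (knockout over wild type, points) with its 95% interval (bars), grouped by class. The interval of Col28a1 alone lies wholly under 0, from -1.58 to -0.40.

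Promoter sequence is shown for Col28a1 and Col15a1, at an unadjusted p under 0.05 by the likelihood ratio test and DESeq2. Neither was called. Also shown is that of Col8a1, whose window held the EGR-type motif. Egr family proteins bind GC-rich sites through their zinc fingers. RefSeq windows (build GRCm38.p6) of the 250 bases upstream of a start site were matched by symbol for 28 of 37 members and gave 31 windows, against 32851 in all. Both strands were searched for the letters GCGNGGGCG (EGR-type), GGGCGG (GC box), CCAAT and TATAAA. In the sequences that follow, read 5′ to 3′ on the gene's strand, capitals mark matches, and in Col8a1 the EGR-type match overlaps a GC box.
Col28a1, chr6:8192618-8192867, minus strand: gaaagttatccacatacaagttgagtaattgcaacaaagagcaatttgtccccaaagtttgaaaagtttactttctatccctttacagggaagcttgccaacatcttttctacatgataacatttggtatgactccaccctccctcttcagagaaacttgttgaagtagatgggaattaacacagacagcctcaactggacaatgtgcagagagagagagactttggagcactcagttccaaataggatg
Col15a1, chr4:47207762-47208011, plus strand: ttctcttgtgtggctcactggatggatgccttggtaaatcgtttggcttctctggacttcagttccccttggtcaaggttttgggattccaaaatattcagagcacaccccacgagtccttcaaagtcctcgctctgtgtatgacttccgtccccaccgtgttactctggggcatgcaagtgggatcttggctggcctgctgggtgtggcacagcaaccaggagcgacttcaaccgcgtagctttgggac
Col8a1, chr16:57754738-57754987, minus strand: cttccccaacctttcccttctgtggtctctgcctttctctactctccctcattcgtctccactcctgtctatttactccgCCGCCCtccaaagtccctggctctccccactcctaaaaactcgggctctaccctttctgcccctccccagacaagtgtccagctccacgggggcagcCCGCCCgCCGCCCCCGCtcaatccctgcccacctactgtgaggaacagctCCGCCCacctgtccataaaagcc
The windows of Col28a1 and Col15a1 held none of the 4 letter strings, and their GC contents were 40.4% and 53.6%, against 60.8% for Col8a1. The EGR-type string stood in 1 of the 31 collagen windows (3.23%), against 4.7% of all windows. GC boxes stood in 18 collagen windows (58.1%), against 32.7% of all windows. CCAAT was found in 10 collagen windows (32.3%), against 33.8% of all, and TATAAA in 3 (9.68%), against 12.4% of all. These matches describe letters in a window and not binding.

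Col28a1 (chromosome 6, positions 7997808 to 8192617, mm10) encodes a collagen with von Willebrand factor domains that is known from the peripheral nerve, where it lies around glial cells. It had 10.7, 14.4, 9.77 and 10.2 CPM in knockout libraries, against 18.9, 27.03, 28.6 and 14.8 CPM in wild type libraries. The knockout libraries sat close together and all below the wild types, but the highest knockout value, in replicate 2, and the lowest wild type value, in replicate 4, lay only a little apart. The means were 11.3 ± 2.10 CPM in knockout and 22.3 ± 6.601 CPM in wild type libraries (SD, n = 4 each). The log2 difference was -0.99 ± 0.27 (SE, 95% interval -1.58 to -0.40), with an unadjusted p of 0.00394 and, by edgeR's quasi-likelihood test, an adjusted p of 0.924. The authors' deposited table gives a log2 fold change of -0.99 with a p of 0.00156 and a false discovery rate of 0.357. Across 19 alternative fits the difference stayed between -1.15 and -0.85 and the unadjusted p under 0.05 in 19 of 19, while the smallest adjusted p was 0.190.

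Schwann cell markers were set beside Col28a1. Of 15 listed Schwann cell genes 0 were called, 14 had a negative log2 difference and 3 had an unadjusted p under 0.05, all lower in knockout, among them Mag at -0.97 and Sox10 at -0.73. Mag encodes a myelin protein and Sox10 a transcription factor of the glial lineage. The summed level of the list ran from 15897 to 35950 CPM in knockout libraries and from 28134 to 47877 CPM in wild type libraries, and none of its genes was at 0 in a whole group. Per 1000 CPM of that sum, Col28a1 stood at 0.467, 0.400, 0.328 and 0.644 CPM in knockout libraries, against 0.395, 0.624, 0.762 and 0.525 CPM in wild type libraries. On this ratio, which was chosen after the values were seen, the groups overlapped, with means of 0.460 ± 0.135 in knockout and 0.577 ± 0.155 in wild type libraries (SD, n = 4 each). That overlap holds for the Schwann cell list alone. The satellite glia list summed to 12425 ± 3306 CPM in knockout and 11682 ± 1452 CPM in wild type libraries (SD, n = 4 each). Col28a1 was not scaled to that list. The part of the Schwann cell or satellite glia content in the Col28a1 difference was not tested.

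**Figure D2:**
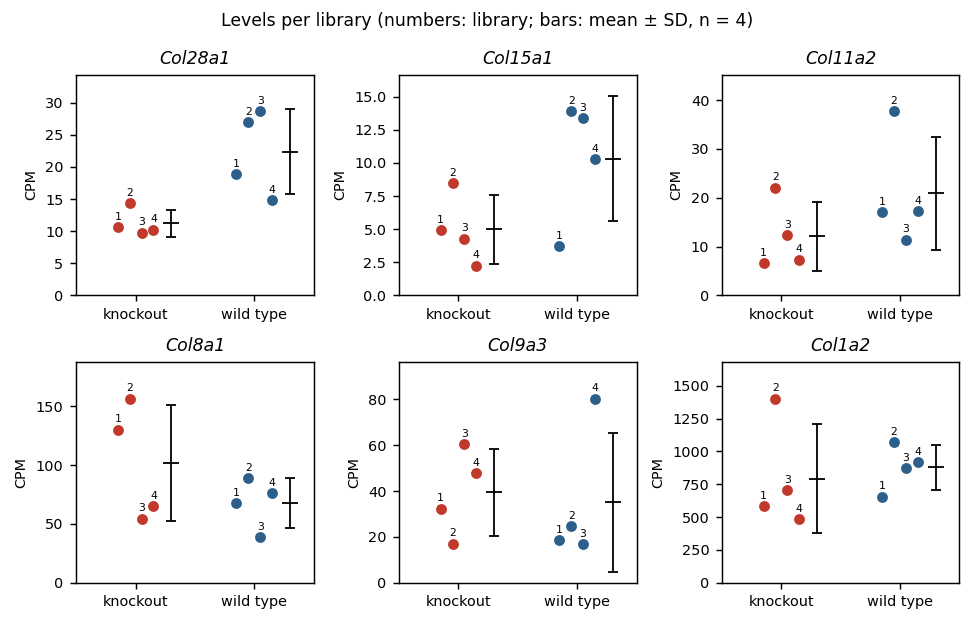
Level of 6 collagens in each library (CPM, linear axis from 0), with knockout left of wild type, each point labelled by its replicate number, and bars for the mean ± SD of 4 libraries. In Col28a1 the 4 knockout points, 9.77 to 14.4 CPM, lie under the 4 wild type points, 14.8 to 28.6 CPM.

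Type I and type III chains made up most of the collagen RNA. They form the banded fibrils of sheath and interstitium, Col1a1 and Col1a2 as the chains of type I and Col3a1 as the chain of type III. On a per-length scale (FPKM, CPM per kilobase of the deposited gene length) Col1a2 averaged 163 over the 8 libraries, Col1a1 97.1 and Col3a1 44.5. Together they held 59.1% ± 4.94 of the collagen FPKM in knockout libraries and 60.6% ± 3.91 in wild type libraries (SD, n = 4 each). The spread was wide: 11 members averaged 10 FPKM or more, 16 lay between 1 and 10, and 10 lay below 1. The lowest was Col19a1 at 0.0459 FPKM.

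**Figure D3:**
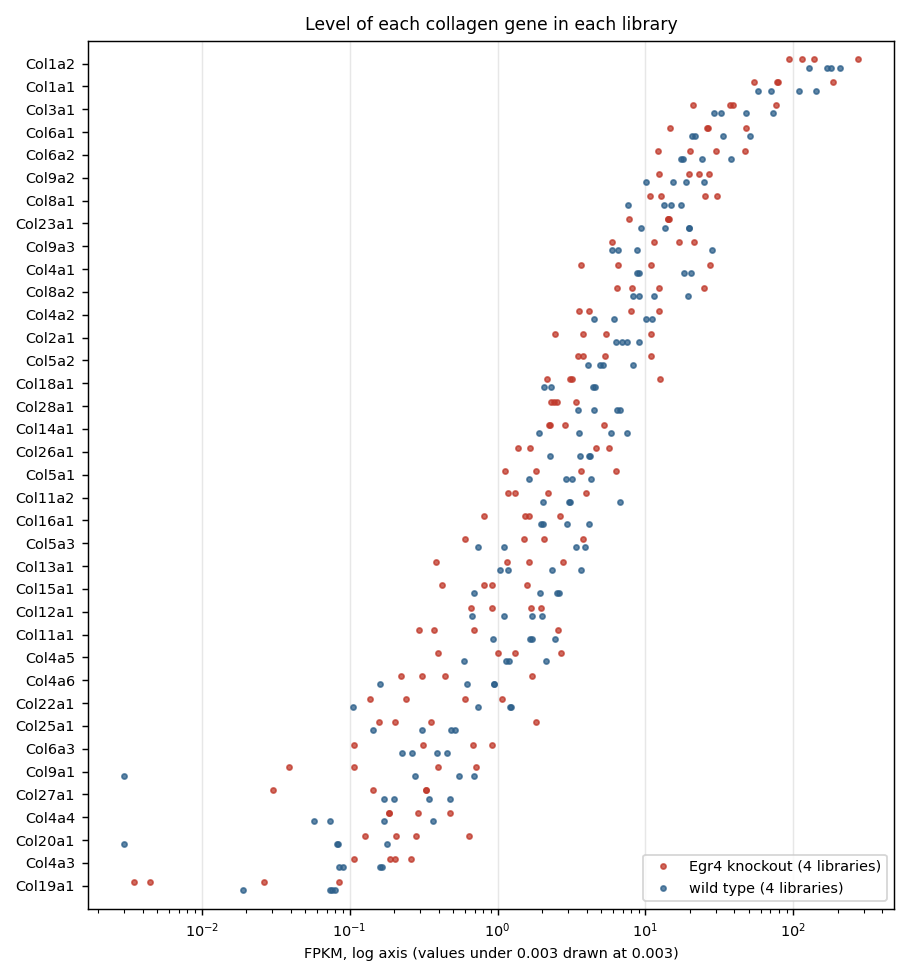
FPKM of each collagen in each library (log axis, points), knockout just above wild type, with genes ordered by mean level and libraries without a count drawn at the left edge. Col1a2, at 163 FPKM on average, heads the list and Col19a1, at 0.0459 FPKM, ends it.

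Col1a2 had 584, 1402, 704 and 483 CPM in knockout libraries, against 657, 1071, 873 and 919.6 CPM in wild type libraries. Knockout replicate 2 was the highest of all 8 and knockout replicate 4 the lowest, so the knockout range enclosed the wild type range, and the log2 difference was -0.15 ± 0.32 (SE). Col1a1 had 255, 878, 371 and 365 CPM in knockout libraries, against 271, 511, 332 and 668 CPM in wild type libraries. Here too the knockout values bracketed the wild types, at a log2 difference of 0.07 ± 0.40. For Col3a1 the values were 218, 427, 207 and 117 CPM in knockout and 161, 406, 265 and 179 CPM in wild type libraries. Both replicates numbered 2 were high, and the log2 difference was -0.06 ± 0.40.

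Type V chains, which start fibrils of type I and set their width, were scarcer, with averages of 3.116 FPKM for Col5a1 and 5.74 FPKM for Col5a2. Col5a1 had 30.7, 52.8, 15.3 and 9.47 CPM in knockout libraries, against 24.4, 36.1, 26.9 and 13.7 CPM in wild type libraries. Col5a2 had 35.5, 71.8, 25.2 and 23.2 CPM in knockout libraries, against 34.0, 54.8, 26.9 and 32.5 CPM in wild type libraries. Replicate 2 was highest in both genotypes for both chains, and the log2 differences were 0.10 ± 0.49 and 0.07 ± 0.37. Col5a3 was at 12.1 ± 8.15 CPM in knockout and 13.9 ± 9.67 CPM in wild type libraries, and Col27a1, a fibrillar chain known from cartilage, at 1.59 ± 1.13 CPM in knockout and 2.28 ± 1.08 CPM in wild type libraries (SD, n = 4 each).

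The cartilage-type fibrillar chains had lower means in knockout libraries, without passing the test. Col2a1, the main collagen of cartilage, had 12.6, 56.1, 27.7 and 19.4 CPM in knockout libraries, against 35.5, 38.6, 32.5 and 46.6 CPM in wild type libraries. Knockout replicates 1, 3 and 4 lay under every wild type library, while replicate 2 lay above them all, at a log2 difference of -0.40 ± 0.39. Col11a1, which with Col11a2 starts cartilage fibrils, had 2.71, 18.7, 5.07 and 2.14 CPM in knockout libraries, against 12.1, 17.8, 6.73 and 12.4 CPM in wild type libraries. Col11a2 had 6.65, 22.1, 12.3 and 7.34 CPM in knockout libraries, against 17.1, 37.7, 11.4 and 17.3 CPM in wild type libraries. Knockout replicates 1 and 4 were the lowest for both chains, and the log2 differences were -0.78 ± 0.65 for Col11a1 and -0.79 ± 0.46 for Col11a2. The 11 measured cartilage markers other than collagens summed to 156 to 198 CPM in knockout and 157 to 189 CPM in wild type libraries. Of these, 0 had an unadjusted p under 0.05 and 0 were called, and Chad stood at a log2 difference of 0.62, Lect1 at 0.40 and Matn4 at -0.36.

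Type IV chains form the network of basement membranes, Col4a1 and Col4a2 in nearly every tissue. Col4a1 had 43.4, 179.9, 72.3 and 24.2 CPM in knockout libraries, against 60.3, 134, 121 and 57.9 CPM in wild type libraries. Col4a2 had 26.7, 79.9, 51.6 and 22.7 CPM in knockout libraries, against 39.1, 64.5, 71.6 and 28.9 CPM in wild type libraries. The lowest library was knockout replicate 4 and the highest knockout replicate 2 for both, and the log2 differences were -0.22 ± 0.55 and -0.17 ± 0.42. Basement membrane chains held 4.03% ± 1.13 of the collagen FPKM in knockout and 4.75% ± 1.58 in wild type libraries (SD, n = 4 each).

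The other type IV chains were scarce. Col4a3, which with Col4a4 is known from the basement membranes of kidney, lung and inner ear, had 2.24, 1.73, 1.60 and 0.928 CPM in knockout libraries, against 1.38, 1.43, 0.731 and 0.776 CPM in wild type libraries. Col4a4 had 1.44, 3.74, 2.27 and 1.44 CPM in knockout libraries, against 1.34, 2.86, 0.452 and 0.576 CPM in wild type libraries. Wild type replicates 3 and 4 were the lowest for both, the groups overlapped, and the log2 differences were 0.59 ± 0.59 and 0.77 ± 0.72. On the X chromosome, Col4a5 had 17.5, 8.50, 6.51 and 2.58 CPM in knockout libraries, against 3.87, 13.9, 7.44 and 7.71 CPM in wild type libraries. Its neighbour Col4a6 had 1.48, 11.4, 2.93 and 2.07 CPM in knockout libraries, against 6.34, 6.28, 4.11 and 1.06 CPM in wild type libraries. These neighbours were high in different libraries, and their log2 differences were 0.09 ± 0.56 and 0.01 ± 0.74.

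Type IV genes lie in head-to-head pairs, so that neighbouring chains start back to back. By the deposited coordinates (mm10), the start sites were 3 bp apart for Col4a1 and Col4a2 on chromosome 8, 72 bp for Col4a3 and Col4a4 on chromosome 1 and 1343 bp for Col4a5 and Col4a6 on chromosome X. The 71 bases between the starts of Col4a4 and Col4a3 are shown because one stretch serves both genes as upstream sequence.
Col4a4-Col4a3 gap, chr1:82586850-82586920, minus strand: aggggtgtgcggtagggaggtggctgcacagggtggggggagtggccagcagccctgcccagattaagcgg
It held none of the 4 letter strings, and its GC content was 69.0%.

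Beaded filament chains of type VI form a fine network in the endoneurium and around cells. Col6a1 had 105, 189, 103 and 58.1 CPM in knockout libraries, against 81.7, 202, 133 and 86.0 CPM in wild type libraries. Col6a2 had 112, 177, 74.2 and 45.1 CPM in knockout libraries, against 64.5, 141, 67.1 and 90.0 CPM in wild type libraries. Replicate 2 of each genotype was highest and knockout replicate 4 lowest for both, at log2 differences of -0.14 ± 0.38 and 0.17 ± 0.40. Col6a3 had 7.34, 9.95, 3.39 and 1.16 CPM in knockout libraries, against 2.86, 4.23, 4.90 and 2.46 CPM in wild type libraries, with a log2 difference of 0.60 ± 0.60. Per base of gene length Col6a1 exceeded Col6a3 by a factor of 77.6 ± 43.4 in knockout and 94.4 ± 25.7 in wild type libraries (SD, n = 4 each), although the chains share 1 filament. The deposited gene lengths were 3976 and 10841 bp, and unequal recovery of different transcripts was not corrected for.

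Short chain collagens of type VIII line vessel walls and form hexagonal nets. Col8a1 had 130.2, 156, 54.6 and 65.3 CPM in knockout libraries, against 68.0, 88.7, 38.9 and 76.3 CPM in wild type libraries. Knockout replicates 1 and 2 lay above every wild type library while replicates 3 and 4 lay within their range, at a log2 difference of 0.58 ± 0.36 and an unadjusted p of 0.139 by edgeR's quasi-likelihood test. Col8a2 had 53.4, 109, 34.9 and 28.0 CPM in knockout libraries, against 39.0, 83.9, 35.9 and 49.4 CPM in wild type libraries. Knockout replicate 2 was again highest, and the log2 difference was 0.11 ± 0.43. Endothelial markers, 12 of 12 with a positive log2 difference and 3 of them higher at an unadjusted p under 0.05 (Ly6c1 at 1.26, Esam at 1.10 and Pecam1 at 1.31), were also highest in knockout replicate 2, at 1609 CPM summed, against 357 to 534 CPM in the other libraries. Pericyte and smooth muscle markers summed to 567 to 2489 CPM in knockout and 514 to 979 CPM in wild type libraries, with 2 of 13 higher at an unadjusted p under 0.05, Acta2 at 2.44 and Cnn1 at 3.69, and with Tagln at 1.25. In both lists 0 genes were called, 0 were lower at that p, and the part of vessel content in the type VIII levels was not tested.

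FACITs averaged between 0.0459 FPKM (Col19a1) and 18.9 FPKM (Col9a2). Col9a2, a chain of type IX, which coats type II fibrils, had 54.1, 73.3, 63.2 and 33.8 CPM in knockout libraries, against 51.9, 68.4, 27.9 and 42.4 CPM in wild type libraries, at a log2 difference of 0.24 ± 0.30. Col9a3 had 32.3, 17.04, 60.6 and 47.7 CPM in knockout libraries, against 18.6, 24.9, 16.8 and 80.3 CPM in wild type libraries, at a log2 difference of 0.17 ± 0.54. Wild type replicate 4 was far above the other wild types for Col9a3 but not for Col9a2. Knockout replicates 1, 3 and 4 and wild type replicate 4 were the highest for Col9a3 and also for the bone markers, whose sum was 2320, 1657, 3108 and 3086 CPM in knockout libraries, against 796, 672, 782 and 3857 CPM in wild type libraries. In all libraries but wild type replicate 2 most of that sum was Spp1, at a log2 difference of 0.95, while Mepe stood at -1.10 and Ifitm5 at -0.43. Of the 13 bone markers 3 were positive and 10 negative, 0 were called and 0 had an unadjusted p under 0.05, and their part in the Col9a3 level was not tested. Exons of Col9a3 also share 230 bases with those of Tcfl5 on the other strand, and the labels mention no step that keeps strand.

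Col9a1, the partner of Col9a2 and Col9a3, had only 0.444, 1.64, 2.99 and 0.162 CPM in knockout libraries, against 2.26, 2.86, 0 and 1.15 CPM in wild type libraries. Wild type replicate 3 had 0 counts, which allows up to 0.0645 CPM (3 counts, counting error only), and the log2 difference was -0.26 ± 1.26. Among other FACITs the log2 difference, with no call, was negative for several: Col14a1, a fibril-spacing chain of skin and tendon, at -0.58, and Col16a1, which links fibrils to cells, at -0.75 with an unadjusted p of 0.0845 by edgeR's quasi-likelihood test. Col22a1, known from muscle and tendon junctions, stood at -0.69, Col12a1, found on fibrils of dense connective tissue, at -0.07, and Col19a1 at -1.06. Col20a1 stood at 1.85 ± 1.10, a fitted value that includes wild type replicate 4 with 0 counts, which allows up to 0.0665 CPM. Of the 9 FACITs 3 were positive and 6 negative, with a median of -0.26.

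Multiplexins are the proteoglycan collagens of the basement membrane zone. Col15a1, which in peripheral nerve helps to sort small axons, had 4.91, 8.47, 4.30 and 2.25 CPM in knockout libraries, against 3.70, 13.9, 13.4 and 10.3 CPM in wild type libraries. Wild type replicates 2, 3 and 4 lay above every knockout library, while wild type replicate 1 lay below 3 of them. The means were 4.98 ± 2.59 CPM in knockout and 10.3 ± 4.69 CPM in wild type libraries (SD, n = 4 each), and the log2 difference of -1.05 ± 0.50 had an unadjusted p of 0.0598 and an adjusted p of 0.924 by edgeR's quasi-likelihood test. Col18a1, the precursor of endostatin, had 18.6, 73.0, 18.01 and 12.6 CPM in knockout libraries, against 11.9, 25.5, 26.3 and 13.2 CPM in wild type libraries. Knockout replicate 2 stood apart from the other 7, and the log2 difference was 0.67 ± 0.54.

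Transmembrane collagens sit in the cell surface and can be shed. Col23a1 had 80.2, 82.1, 80.5 and 44.1 CPM in knockout libraries, against 76.7, 112, 111 and 53.2 CPM in wild type libraries. Replicate 4 was lowest in both genotypes, and the log2 difference was -0.30 ± 0.28. Col25a1, a neuronal collagen that motor axons need to enter muscle, had 2.67, 13.7, 1.51 and 1.18 CPM in knockout libraries, against 2.30, 3.60, 1.08 and 3.83 CPM in wild type libraries. Its log2 difference of 0.82 ± 0.80 rested on knockout replicate 2 and was -0.60 without it. Col13a1, which organises the neuromuscular junction, stood at 4.69 ± 3.18 CPM in knockout and 6.51 ± 3.85 CPM in wild type libraries, and Col26a1 at 9.02 ± 5.80 CPM in knockout and 9.65 ± 2.44 CPM in wild type libraries (SD, n = 4 each).

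By class, the median log2 difference was -0.17 for fibrillar chains (3 positive, 7 negative), 0.05 for type IV (4 and 2), 0.01 for beaded filament chains (2 and 2) and 0.35 for short chain collagens (2 and 0). It was -0.19 for the multiplexins (1 and 1) and -0.30 for the transmembrane collagens (1 and 2).

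The collagens of a library tended to be high or low together. Collagens took 0.182%, 0.417%, 0.211% and 0.147% of all counts in knockout libraries, against 0.185%, 0.347%, 0.245% and 0.259% in wild type libraries. The highest and the lowest library were both knockouts, and the means were 0.240% ± 0.121 in knockout and 0.259% ± 0.0670 in wild type libraries (SD, n = 4 each). Knockout replicate 2 held the highest value of the 8 libraries for 19 of 37 collagens (51.4%), beside 15.01% of all genes. Knockout replicate 4 held the lowest for 18 (48.6%), beside 17.1% of all genes. Wild type replicate 2 was highest for 7 collagens, and neither replicate numbered 2 was lowest for any.

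The family's median lay on opposite sides of 0 without one or the other of these knockout libraries. Without knockout replicate 2 the median log2 difference was -0.49, with 28 of 37 collagens negative, beside 51.1% of all genes. In that fit 7 collagens were lower at an unadjusted p under 0.05, beside 4.69% of all genes in that direction: Col1a2, Col2a1, Col4a1, Col11a1, Col11a2, Col15a1 and Col28a1. Without knockout replicate 4 the median was 0.11, with 12 collagens negative, beside 50.0% of all genes, and Col28a1 as the sole one at that p. Neither fit called a collagen at an adjusted p under 0.05. Without wild type replicate 2 the median was 0.07.

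**Figure D4:**
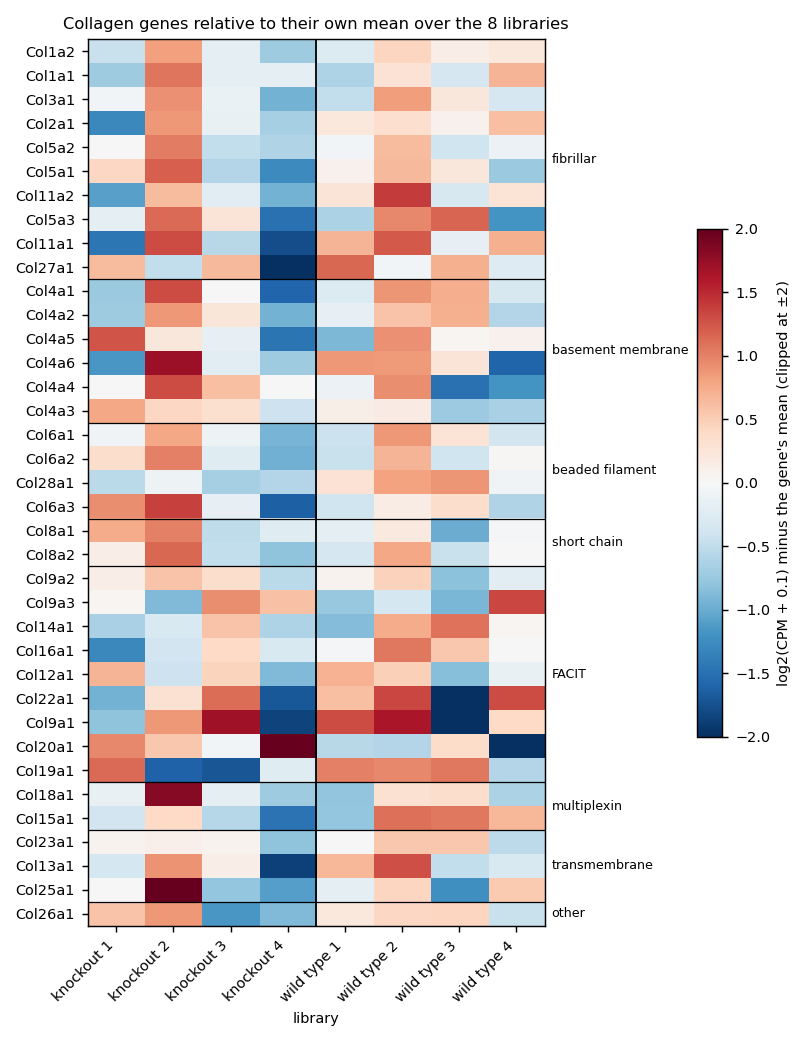
Level of each collagen (rows, by class) in each library (columns, knockout left of wild type), as log2 of CPM plus a small constant, minus the gene's mean over the 8 libraries, with the colour scale cut off at both ends. The column of knockout replicate 2 is high and that of knockout replicate 4 low in most rows, with 19 highest and 18 lowest values of 37.

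Chains of 1 trimer were compared within each library by their counts per base of gene length, a ratio that library scaling does not touch. Unequal recovery of different transcripts was not corrected for, so these ratios do not count the chains of a trimer. Col1a1 to Col1a2 was 0.478, 0.685, 0.577 and 0.828 in knockout libraries, against 0.452, 0.522, 0.416 and 0.795 in wild type libraries. It lay below 1 in all 8 libraries, although the type I trimer holds more α1 than α2 chains, with means of 0.642 ± 0.150 in knockout and 0.546 ± 0.171 in wild type libraries (SD, n = 4 each). Col4a1 to Col4a2 averaged 1.54 ± 0.486 in knockout and 1.78 ± 0.248 in wild type libraries, and it lay above 1 in all 8, between 1.04 and 2.19. Col6a1 to Col6a2 was 1.10 ± 0.193 in knockout and 1.32 ± 0.404 in wild type libraries, and Col8a1 to Col8a2 1.65 ± 0.436 in knockout and 1.15 ± 0.290 in wild type libraries. Col11a1 to Col11a2 was 0.378 ± 0.190 in knockout and 0.479 ± 0.0896 in wild type libraries. Col4a5 to Col4a6 ran from 0.625 to 12.1.

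Partner chains varied together between libraries in most pairs. Over 14 pairs of chains that share a trimer or a fibril, the correlation of log2 CPM over the 8 libraries was positive for 12, and 10 had an adjusted p under 0.05 by an exact two-sided permutation test of Pearson's r (9 by Spearman's rho). With 1 library left out, 2 to 9 pairs met that threshold: 2 without knockout replicate 3, 3 without knockout replicate 2, knockout replicate 4 or wild type replicate 1, and 6 without wild type replicate 3. The permutations pooled both genotypes, and within a genotype some called pairs were uneven. For Col4a3 and Col4a4 r was 0.235 in knockout and 0.940 in wild type libraries. In knockout and wild type libraries r was 0.977 and 0.346 for Col2a1 with Col11a2, and 0.941 and 0.528 for Col5a1 with Col5a2. Col4a1 and Col4a2 stood out with r = 0.955 and rho = 0.976 (exact permutation p = 0.000149 and 0.000397, adjusted p = 0.00208 and 0.00556). Without the 2 libraries farthest from the median, knockout replicates 2 and 4, r was 0.939. Among 15109 other genes, Col4a2 ranked 13th by r with Col4a1, and Col4a1 ranked 12th with Col4a2. Such ranks were 13th and 11th for Col11a1 with Col11a2, and 26th and 69th for Col9a1 with Col9a2. In the other called pairs they ran from 113th (type I chains) to 606th (Col4a3 with Col4a4), so many other genes followed those chains more closely. The deposited exons of Col4a1 and Col4a2 do not overlap. Those of Col4a1 share 22 bases with GENCODE exons of Col4a2 on the opposite strand, a small part of either gene.

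Col11a1 and Col11a2, which lie on chromosomes 3 and 17, had r = 0.933 and rho = 0.929 (exact permutation p = 0.00057 and 0.00223, adjusted p = 0.00399 and 0.0156), and r = 0.852 without knockout replicates 1 and 4. Those 2 pairs alone had an adjusted p under 0.05 in all 12 settings of scaling, prior count and left-out library. Col6a1 and Col6a3 had r = 0.785 and rho = 0.810 (exact permutation p = 0.0214 and 0.0218, adjusted p = 0.0375 and 0.0381), and r = 0.868 without the replicates numbered 2. Type I chains had r = 0.801 and rho = 0.786 (exact permutation p = 0.0170 and 0.0279, adjusted p = 0.0339 and 0.0434), but r was 0.585 with an exact permutation p of 0.218 without knockout replicate 2 and wild type replicate 4, so at 6 libraries the relation no longer passed. Leaving out wild type replicate 4 alone gave r = 0.819, and leaving out knockout replicate 2 alone r = 0.634. In 6 further pairs the exact permutation p was likewise above 0.05 without 2 libraries. Their r was then 0.635 for Col5a1 and Col5a2, 0.621 for Col8a1 and Col8a2, 0.570 for Col6a1 and Col6a2, 0.506 for Col2a1 and Col11a2, 0.428 for Col9a1 and Col9a2, and 0.223 for Col4a3 and Col4a4.

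Not all partners moved together. Col4a5 and Col4a6 had r = -0.02 and rho = -0.05 (exact permutation p = 0.962 and 0.935, adjusted p = 0.962 and 0.935), although their starts are neighbours. Col9a2 and Col9a3 had r = -0.08 and rho = -0.05 (exact permutation p = 0.839 and 0.935, adjusted p = 0.903 and 0.935). Col1a1 and Col3a1 had r = 0.523 and Col2a1 and Col9a1 r = 0.361, with adjusted exact permutation p of 0.233 and 0.441.

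**Figure D5:**
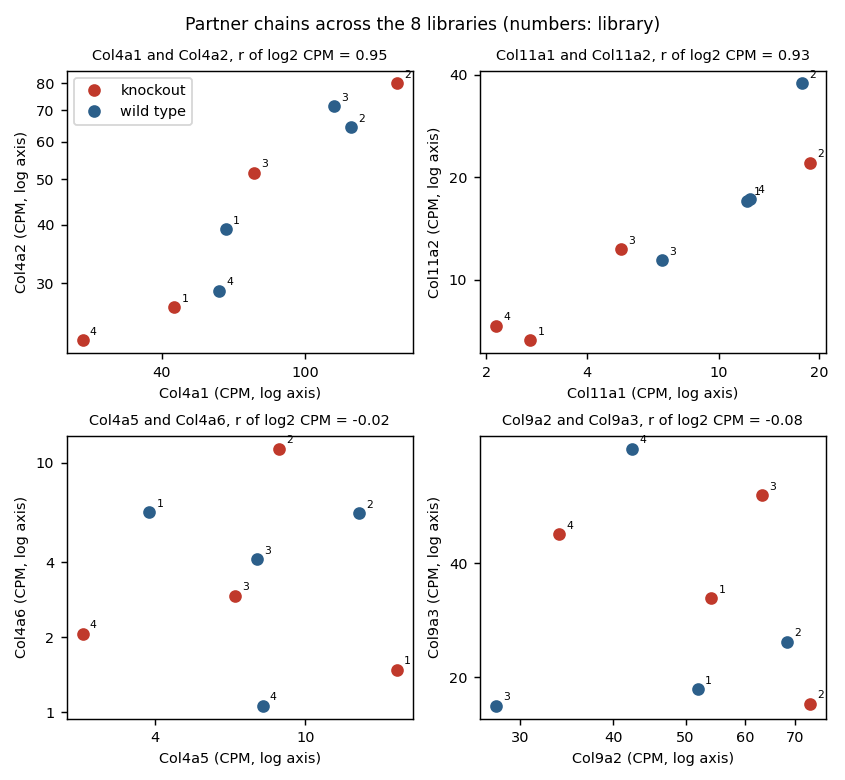
Levels of 4 pairs of partner chains in the 8 libraries (CPM, both axes logarithmic, points labelled by replicate number). Col4a1 with Col4a2 (r = 0.955) and Col11a1 with Col11a2 (r = 0.933) lie along a line, while Col4a5 with Col4a6 (r = -0.02) and Col9a2 with Col9a3 (r = -0.08) scatter.

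Genes that make, cut and bind collagen were described from lists, and 0 of them were called in any list, at a smallest adjusted p of 0.924. Of 28 measured folding and crosslinking genes, 1 was higher at an unadjusted p under 0.05, the crosslinking oxidase Loxl1 at a log2 difference of 0.75, and 1 was lower, the prolyl hydroxylase chain P4ha3 at -0.71. Plod2, a lysyl hydroxylase, stood at -0.65. Of 8 propeptide processing genes 0 had such a p, with the protease Adamts2 at 0.52, Adamts3 at 0.86 and the enhancer Pcolce at 0.22. Of 18 genes of degradation and uptake, the protease inhibitors Timp1 and Timp4 were higher at an unadjusted p under 0.05, at 0.98 and 1.30, and the gelatinase Mmp9 was lower, at -1.29. The level of Timp1 was 22.6, 22.8, 13.6 and 9.17 CPM in knockout libraries, against 13.2, 5.78, 8.13 and 7.40 CPM in wild type libraries, so knockout replicate 4 lay within the wild type range. Mmp9 had 46.6, 53.0, 35.0 and 20.6 CPM in knockout libraries, against 49.0, 23.4, 127 and 179 CPM in wild type libraries. Wild type replicates 3 and 4 were thus high, while replicates 1 and 2 lay within the knockout range.

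Among 14 measured genes listed as collagen receptors 0 had an unadjusted p under 0.05, and 11 were negative, Cd44 at -0.52 and the syndecan Sdc3 at -0.35 among them. Cd93, whose role as a collagen receptor is not established, stood at 1.00. It was highest in knockout replicate 2, at 31.0 CPM, against 9.36, 7.71 and 5.22 CPM in knockout replicates 1, 3 and 4. Wild type libraries had 5.81 to 8.48 CPM of Cd93. Among 19 proteins that bind fibrils, 3 were higher at an unadjusted p under 0.05 and 0 lower: the leucine-rich proteoglycans Aspn at 1.46 and Omd at 0.82, and the fibulin Fbln1 at 1.05. Aspn had 6.65, 8.85, 9.03 and 3.23 CPM in knockout libraries, against 3.06, 3.32, 1.25 and 2.44 CPM in wild type libraries. Knockout replicates 1, 2 and 3 lay above all wild types, and replicate 4 lay inside their range. Among 15 basement membrane partners Smoc1 was higher at that p, at 0.78, while the laminin chain Lamb1 stood at -0.73 and the nidogen Nid2 at -0.83. Of 16 TGF-beta pathway genes, which drive collagen transcription in many tissues, Ctgf was higher at that p, at 1.14, with Smad2 at -0.34 and the matrix protein Tgfbi at -0.46.

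Markers of collagen-making cells gave no call either. Of 15 fibroblast markers 2 were higher at an unadjusted p under 0.05, Pi16 at 0.95 and Ly6a at 1.24, with Fbln7 at 0.50, and the list summed to 572 to 800.1 CPM in knockout and 351 to 659 CPM in wild type libraries. Of 11 perineurium markers Perp was higher at that p, at 1.15, while Itgb4 stood at -0.73 and Sfrp5 at -0.28. All 14 meningeal markers had positive log2 differences, with 3 at that p, Ptgds at 1.29, Slc22a6 at 1.10 and Foxc2 at 0.78. Their sum ran from 25267 to 95557 CPM in knockout and from 10528 to 32182 CPM in wild type libraries and was mostly Ptgds. Fibroblast and perineurium sums were both highest in knockout replicate 2, the library highest in collagens. Both were lowest in wild type replicate 4, at 351 and 408 CPM, where collagens took 0.259% of counts. Knockout replicate 4, lowest in collagens at 0.147%, had sums of 572 and 431 CPM. The part of these cells in the collagen levels was not tested.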

How the data were processed

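Total RNA of geniculate ganglia was sequenced in 4 Egr4-/- and 4 Egr4+/+ libraries from 1 ng of RNA as read pairs of 150 bp (SMART-Seq v4 and Nextera XT), per the labels' protocols, after an RNA integrity number above 8. The mouse build mm10 and the tools STAR 2.5, featureCounts (Subread 1.5.1), edgeR 3.12.1 and FastQC 0.11.5 stand in the submitters' processing notes. The authors deposited raw counts per gene and library. The authors' deposited table also holds log2 FPKM per library, a fold change as a ratio and as a log2 value, and a p-value with a false discovery rate. Log2 FPKM recomputed from counts, gene lengths and TMM factors differed from the deposited values by at most 0.00304 over 5330 genes, which served as a check of the table.

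Counts of all 15110 genes were fitted with edgeR 4.0.16 in R 4.3.3 (TMM, filterByExpr, which removed none, estimateDisp, robust glmQLFit, genotype only, two-sided), with Benjamini-Hochberg adjustment over the whole table and calls at 0.05. Intervals are at 95%. SEs are the log2 difference over the square root of F. Alternatives used DESeq2 1.42.0, limma 3.58.1, other scalings, filters and covariates, and left-out libraries. The code was tested on simulated data. Partner correlations used log2 CPM with a prior count of 2 and all 40320 pairings of the 8 libraries (smallest possible p 4.96e-05). Ratios and FPKM used the deposited gene lengths.

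Full values are given for the 10 collagens highest in FPKM, those at an unadjusted p under 0.05 or without overlap between the groups, the 4 largest absolute differences at a mean of at least 1 CPM, and partner chains. Of each list, up to 3 genes with the smallest p are named, and a few of these are not reported here. The members, pairs and lists were chosen with earlier results of these data known. Exons of 9 of the 37 collagens share bases with another GENCODE gene, so reads there cannot be assigned with certainty. No molecular identifiers are described, so duplicate reads were not separated from molecules.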

Additional observations from a re-analysis of the deposited data

Results flagged for a closer look

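In 6 of 74 groups of 4 libraries, 1 library stood far from the other 3, with a gap to the nearest of them, as a share of the group's range, above Dixon's 95% critical value. For normally distributed values chance gives about 3.7 such groups (1 in 20). The values here are CPM without a log, and all groups draw on the same 8 libraries, so that number is only a guide. Knockout replicate 2 was far above the other knockouts for Col18a1 (gap 0.901 of the range), Col25a1 (0.881) and Col4a6 (0.854). Knockout replicate 4 was far below the other knockouts for Col23a1 (0.951). Wild type replicate 4 was far above the other wild types for Col9a3 (0.873) and far below them for Col19a1 (0.903).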

How the results depend on the processing

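Collagens called numbered 0 in all 19 alternatives. Among these, the Xist class split the libraries at 100 counts of Xist, and how the libraries of each genotype fell into the classes is not reported here. The count of all genes called, 1, was 10 by the likelihood ratio test, 14 by DESeq2, 2 with the replicate block, 0 with RLE factors, with library size alone, with the Xist class as a covariate and without replicate 4 of both genotypes, and 0 to 1 with each library left out. Collagens at an unadjusted p under 0.05, 1, numbered 2 by the likelihood ratio test (5.08% of all genes), by DESeq2 (6.35%) and with the Xist class (4.31%). Such collagens numbered 4 with the replicate block (9.61% of all genes) and 1 to 7 with each library left out (2.72% to 7.43%). They were 3 without wild type replicate 1 (5.27% of all genes) or knockout replicate 3 (4.58%), 2 without wild type replicate 4 (7.43%) and 7 without knockout replicate 2 (7.23%). Collagens without overlap, 1 (2.62% of all genes), numbered 1 to 3 with each library left out, beside 4.03% to 7.43% of all genes. Col2a1 and Col11a1 were added without knockout replicate 2 (7.43% of all genes) and Col20a1 and Col16a1 without knockout replicate 3 (5.03%). The partner pairs called, 10, numbered 2 to 9 with each library left out, 9 with a prior count of 5 and 10 with the other scalings and a prior count of 0.5. The family's median log2 difference ran from -0.49 to 0.11 with a library left out. With the Xist class as a covariate it was -0.25, with 29 collagens on the negative side, beside 49.0% of all genes. Library size alone moved the median of all genes to -0.04. An SD of 0.685 between knockout libraries in the members' median log2 level limits what 4 against 4 libraries can resolve, and the scarce chains below 1 FPKM rest on few reads.

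The main fit did not pair the libraries by replicate number, and whether these numbers mark a pairing or a shared batch was not tested. The same-numbered deviations correlated at 0.0606, 0.149, 0.0040 and 0.0632. Knockout replicates 1, 2 and 4 correlated best with the wild type library of their own number, but replicate 3 with wild type replicate 4. With the replicate block 1452 genes, against 731 without it, had an unadjusted p under 0.05, and the 4 collagens there were Col8a1 (higher) and Col11a2, Col16a1 and Col28a1 (lower).

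Some collagens turned sign, none of them called, and the cause was not tested. With the replicate block the log2 difference was -0.0025 for Col1a1, -0.14 for Col4a5, -0.16 for Col4a6, -0.11 for Col5a1, -0.031 for Col5a2 and -0.0041 for Col8a2. With the Xist class it was -0.093 for Col1a1, -0.16 for Col25a1, -0.34 for Col4a5, -0.099 for Col4a6, -0.36 for Col5a1, -0.20 for Col5a2, -0.17 for Col6a2 and -0.26 for Col8a2. By limma-voom it was -0.0046 for Col1a1, -0.18 for Col4a6, -0.10 for Col5a1, -0.018 for Col5a2 and 0.80 for Col9a1, and with library size alone -0.040 for Col4a6. Without replicate 4 of both genotypes it was 0.045 for Col1a2, 0.030 for Col3a1 and -0.085 for Col4a6. With each library left out it ran from -0.43 to 0.33 for Col1a1, -0.58 to 0.027 for Col1a2, -0.49 to 0.27 for Col3a1, -1.004 to 0.079 for Col4a1 and -0.60 to 0.047 for Col4a2. The ranges were -0.48 to 0.46 for Col4a5, -1.04 to 0.31 for Col4a6, -0.46 to 0.38 for Col5a1, -0.41 to 0.33 for Col5a2, -0.51 to 0.19 for Col6a1 and -0.24 to 0.47 for Col6a2. They were -0.43 to 0.44 for Col8a2, -1.06 to 0.20 for Col9a1, -0.12 to 0.97 for Col9a3 and -0.60 to 1.14 for Col25a1.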

Other observations

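Lists of other cell types gave 0 calls at a smallest adjusted p of 0.924 by edgeR's quasi-likelihood test. All 11 measured skeletal muscle markers had positive log2 differences and 8 were higher at an unadjusted p under 0.05. Atp2a1, the calcium pump of fast fibres, stood at 6.30, Myh4 at 6.13 and Tnni2 at 3.29. The list summed to 380, 89.2, 492 and 2612 CPM in knockout libraries, against 33.5, 44.2, 69.5 and 527 CPM in wild type libraries, so knockout replicate 4, lowest for 18 collagens, was the highest in muscle markers.

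Of 15 ganglion neuron markers 3 were lower at an unadjusted p under 0.05, among them the ATP receptor subunits P2rx2 at -0.69 and P2rx3 at -0.59. Their list summed to 10522, 6282, 12083 and 15193 CPM in knockout libraries, against 9659, 6905, 11393 and 14573 CPM in wild type libraries. Both replicates numbered 2, high in collagens, were the lowest of their genotype in this sum, and both replicates numbered 4 were the highest. Of 11 satellite glia markers Sox10 was lower at that p, while S100b stood at -0.39, and the list summed to 9020 to 16069 CPM in knockout and 9874 to 13411 CPM in wild type libraries.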
